A study of Mus musculus with 8 samples.

Results

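NF-kB is a family of transcription factors that act as dimers and switch on genes of inflammation and immune defence. In resting cells the dimers are held in the cytoplasm by IkB inhibitors, and signals from toll-like receptors, the interleukin 1 receptor and TNF receptors lead to destruction of these inhibitors and entry of the dimers into the nucleus. Several genes that NF-kB switches on encode its own inhibitors, so the pathway limits itself. In spinal discs and other joint tissue it operates in resident disc cells as well as in macrophages and neutrophils. The genes described here are 5 NF-kB subunits (Nfkb1, Nfkb2, Rel, Rela and Relb) and 5 feedback regulators (Nfkbia, Nfkbie, Nfkbiz, Tnfaip3 and Irak3). Members were measured by the probe sets (groups of short probes for a transcript) whose annotation named only that gene. This gave 19 probe sets for 9 of the 10 genes, out of 18193 genes measured in all. No probe set used here named Nfkb1 alone, so that gene was not analysed here.

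Total RNA came from lumbar intervertebral discs, L1 to L6, of female BALB/c mice, with 6 discs pooled for a sample. The 5 immunized samples came from mice with proteoglycan-induced spondylitis, an autoimmune disease of the spine. These mice were given cartilage proteoglycan (100 µg of protein) together with the adjuvant DDA (2 mg) on days 0, 21 and 42. The 3 naive samples came from BALB/c mice of matching age. The labels call the samples biological replicates, but the descriptions of immunized replicate 1 and naive replicate 3 each join 2 sample numbers, so pooling of mice there cannot be told from the sources used here. The adjuvant was given only with the proteoglycan, and the contribution of each to a difference cannot be told apart. Values are taken to be on a log2 scale, the usual scale of their normalization method although the base is not stated, and are centred, for each probe set, on its median across the 8 arrays. A difference of 1 is thus a doubling, and levels cannot be compared between genes.

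The tissue label was checked against markers. All 8 chondrocyte markers and 4 of 5 nucleus pulposus markers had a probe set whose lowest array was at 8 or more (log2), a coarse level read from the spacing of the deposited numbers. Marker genes of blood cells were also found at that level, among them 9 of 10 neutrophil and 6 of 8 macrophage markers. So were 3 of 3 erythroid and 2 of 2 osteoblast markers. Markers of T cells (1 of 6), dendritic cells (1 of 4), endothelium (1 of 4), B cells (2 of 4) and plasma cells (3 of 5) were found there less often. Of all probe sets 31.7% lay at 8 or more, whereas a marker was counted if any of its probe sets did. Of all genes, 812 were higher and 851 lower in immunized samples at a Benjamini-Hochberg adjusted p under 0.05 in limma, 4.46% and 4.68% of those tested, and quantile normalization of the deposited values changed this split to 521 higher and 377 lower. In a principal component analysis the groups separated on component 1 (52.2% of the variance). On component 2 (19.7%) naive replicate 1 (-32.1) stood apart from the other naive samples (7.53 and 7.07). Differences of the members without it are therefore given where leaving it out changed a call or a sign.

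Of the 9 genes measured, 4 rose in the discs of immunized mice: Nfkbiz, Irak3, Nfkbie and Rel. None fell in limma, and with no adjustment the count at p under 0.05 was again 4 higher and 0 lower. Of all genes 4.46% rose and 4.68% fell, and 12.9% and 18.2% did so without adjustment. The regulators gave 3 of these rises out of 5 genes and the subunits 1 out of 4; whether the groups of genes differ was not tested. The median difference was 0.31 on the log2 scale over the 9 members and -0.04 over all genes. Every immunized sample lay above every naive sample in 4 of the 9 members, the same 4 that were called, and in 9.39% of all genes. In bulk tissue a change in the number of cells that express a gene and a change in RNA per cell cannot be told apart.

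**Figure D1:**
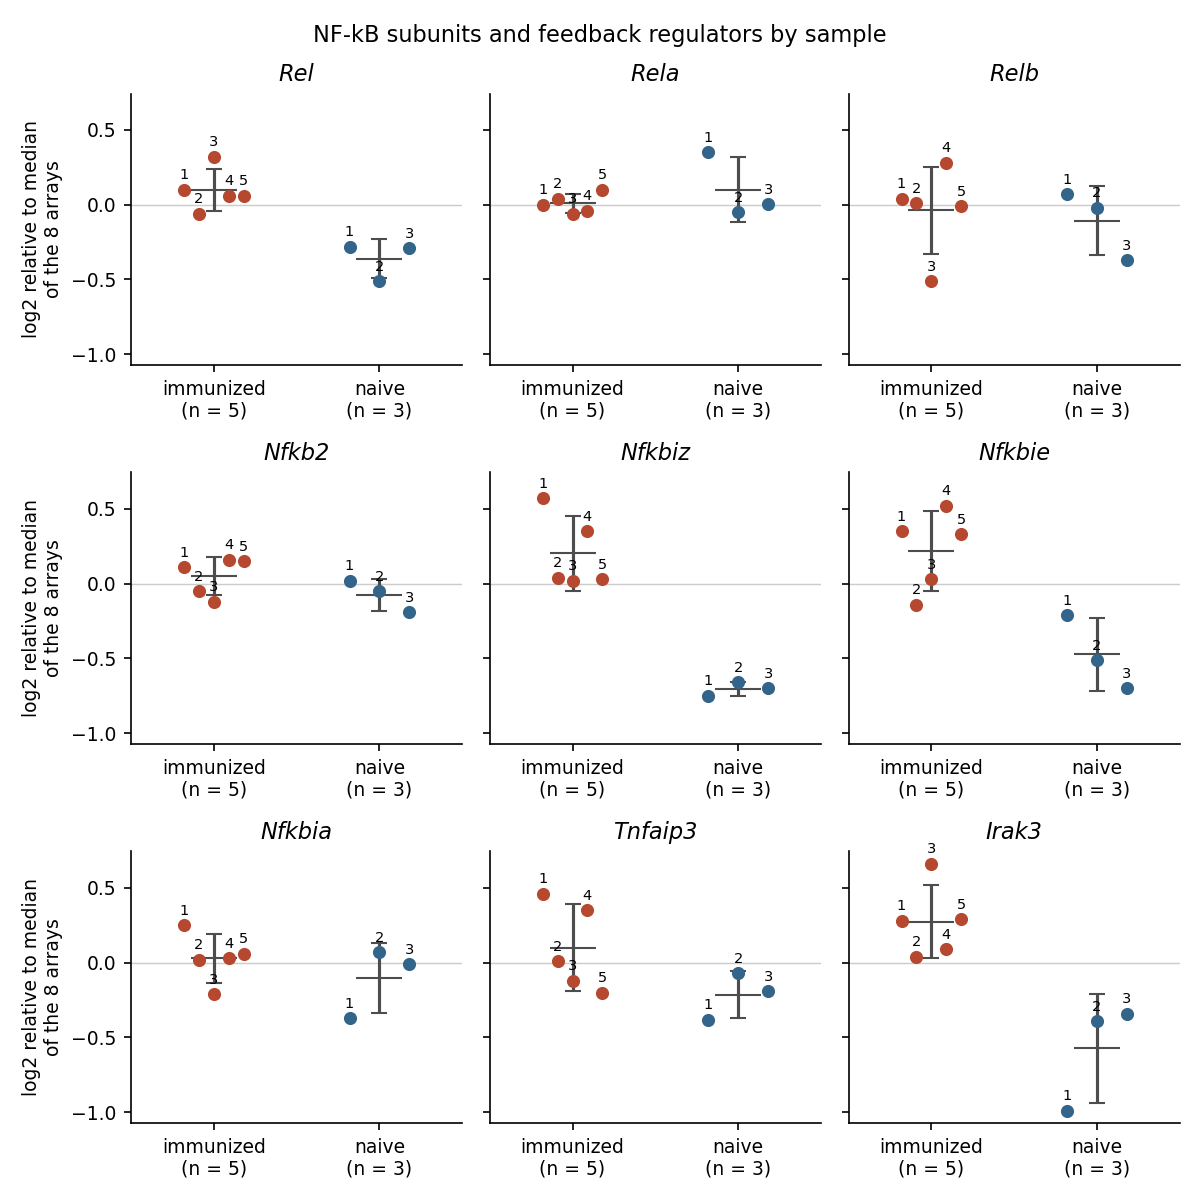
Expression of the 9 members in each sample, on the centred log2 scale. Points are samples with their replicate number (immunized, n = 5; naive, n = 3), and bars give the mean and SD. In Nfkbiz the immunized samples lay between 0.02 and 0.57 and the naive samples between -0.75 and -0.66, while in Rela, Relb, Nfkb2, Nfkbia and Tnfaip3 the groups overlapped.

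Among the subunits, Rel encodes c-Rel, a subunit used mainly by lymphoid and myeloid cells. Rel measured 0.10, -0.06, 0.32, 0.06 and 0.06 in immunized replicates 1 to 5, against -0.28, -0.51 and -0.29 in naive replicates 1 to 3. The groups did not overlap, and immunized replicate 3 was the highest sample. The difference was 0.46 ± 0.10 (SE), or 1.37-fold (95% interval 1.17 to 1.61), with an adjusted p of 0.033 in limma. Rel was measured by a single probe set.

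The other 3 subunits did not pass. Rela encodes p65, which carries a strong activation domain and is the usual partner of p50. Rela measured -0.0014, 0.04, -0.06, -0.04 and 0.10 in immunized replicates 1 to 5, against 0.35, -0.05 and 0.0014 in naive replicates 1 to 3. Its highest value was that of naive replicate 1, and the other 7 samples lay close together. The difference was -0.09 ± 0.10 (SE, adjusted p = 0.564 in limma), and 0.03 without naive replicate 1. Its 95% interval ran from -0.32 to 0.14 on the log2 scale.

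Relb and Nfkb2 encode the partners of the noncanonical pathway, in which the kinase NIK triggers processing of the Nfkb2 precursor. Relb measured 0.04, 0.01, -0.51, 0.28 and -0.01 in immunized replicates 1 to 5, against 0.07, -0.02 and -0.37 in naive replicates 1 to 3. Immunized replicate 3 and naive replicate 3 were both low, and the groups overlapped throughout. The difference in Relb was 0.07 ± 0.17 (SE, adjusted p = 0.819 in limma). Nfkb2 measured 0.11, -0.05, -0.12, 0.16 and 0.15 in immunized replicates 1 to 5, against 0.02, -0.05 and -0.19 in naive replicates 1 to 3. These groups overlapped as well, with a difference of 0.13 ± 0.10 (SE, adjusted p = 0.398 in limma; 95% interval -0.09 to 0.34). The kinase NIK, encoded by Map3k14, had a difference of -0.08 ± 0.10 (SE, adjusted p = 0.615 in limma).

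Among the regulators, Nfkbiz encodes IkB-zeta, a nuclear member of the IkB family that is induced by toll-like receptor and interleukin 1 signals and is needed for induction of Il6 in mouse macrophages. Nfkbiz measured 0.57, 0.04, 0.02, 0.35 and 0.03 in immunized replicates 1 to 5, against -0.75, -0.66 and -0.70 in naive replicates 1 to 3. The naive samples lay close together (SD 0.05), and immunized replicates 1 and 4 stood above the other 3 immunized samples. The difference was 0.90 ± 0.14 (SE), or 1.87-fold (95% interval 1.5 to 2.31), with an adjusted p of 0.0146 in limma. The lowest immunized sample was 0.67 above the highest naive sample, the widest gap among the 9 members.

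Its 3 probe sets all had every immunized sample above every naive sample, but they differed in size. Probe set 1417483_at gave a difference of 1.40 ± 0.19 (SE), or 2.64-fold, and 1457404_at gave 0.83 ± 0.13. The difference in 1448728_a_at was 0.47 ± 0.12 and did not pass over all probe sets (adjusted p = 0.0563 in limma). The naive values of 1417483_at were -1.37, -1.03 and -1.03, and those of 1448728_a_at only -0.31, -0.26 and -0.41.

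Irak3 encodes IRAK-M, a kinase relative of monocytes and macrophages that dampens signals from toll-like receptors and the interleukin 1 receptor. Irak3 measured 0.28, 0.04, 0.66, 0.09 and 0.29 in immunized replicates 1 to 5, against -0.99, -0.39 and -0.34 in naive replicates 1 to 3. Immunized replicate 3 was highest and naive replicate 1 far lowest. The difference was 0.84 ± 0.18 (SE), or 1.79-fold (95% interval 1.35 to 2.39), with an adjusted p of 0.0307 in limma. Without naive replicate 1 it was 0.64 and did not pass (adjusted p = 0.0736). The low naive value came from probe set 1430704_at (-1.64 in naive replicate 1), whereas in 1435040_at naive replicate 1 (-0.33) lay beside the other naive samples (-0.42 and -0.53). Probe set 1435040_at alone gave 0.71 ± 0.17 (SE, adjusted p = 0.042 over all probe sets in limma). The other, 1430704_at, gave 0.98 ± 0.33 (SE) and did not pass (adjusted p = 0.0982 over all probe sets in limma).

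Nfkbie encodes IkB-epsilon, a cytoplasmic inhibitor that holds dimers of Rela and Rel. Nfkbie measured 0.35, -0.14, 0.03, 0.52 and 0.33 in immunized replicates 1 to 5, against -0.21, -0.51 and -0.70 in naive replicates 1 to 3. The groups were separated narrowly, by 0.07 between immunized replicate 2 and naive replicate 1. The difference was 0.69 ± 0.17 (SE), or 1.62-fold (95% interval 1.24 to 2.10), with an adjusted p of 0.0396 in limma. Both probe sets moved by a like amount, 0.68 in 1431843_a_at and 0.70 in 1458299_s_at, although in the second naive replicate 1 (-0.03) lay above immunized replicate 2 (-0.25). Only the first passed over all probe sets (adjusted p = 0.0306 in limma, against 0.0859 in the second).

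Nfkbia encodes IkB-alpha, the classical inhibitor and a textbook NF-kB target. Nfkbia measured 0.25, 0.02, -0.21, 0.03 and 0.06 in immunized replicates 1 to 5, against -0.37, 0.07 and -0.01 in naive replicates 1 to 3. Naive replicate 1 was the lowest sample and immunized replicate 3 the next, so the groups overlapped. The difference was 0.14 ± 0.13 (SE, adjusted p = 0.490 in limma; 95% interval -0.15 to 0.43), and it was 0.01 without naive replicate 1. All 5 probe sets gave small positive differences, from 0.02 to 0.21, and none passed in limma, also not at an unadjusted p under 0.05 (0 of 5).

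Tnfaip3 encodes a ubiquitin-editing enzyme that shuts off signalling to the IkB kinase. Tnfaip3 measured 0.46, 0.01, -0.12, 0.35 and -0.20 in immunized replicates 1 to 5, against -0.38, -0.07 and -0.19 in naive replicates 1 to 3. Immunized replicates 1 and 4 were again the highest, and replicates 3 and 5 lay within the range of the naive samples. The mean of its probe sets differed by 0.31 ± 0.16 (SE, adjusted p = 0.224 in limma). The 2 probe sets disagreed. In 1433699_at every immunized sample lay above every naive sample and the difference was 0.68 ± 0.20 (SE), with an adjusted p of 0.070 over all probe sets. In 1450829_at it was -0.06 ± 0.17 (SE, adjusted p = 0.857), and immunized replicate 5 (-0.60) was the lowest sample. The difference between the 2 probe sets was not tested.

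**Figure D2:**
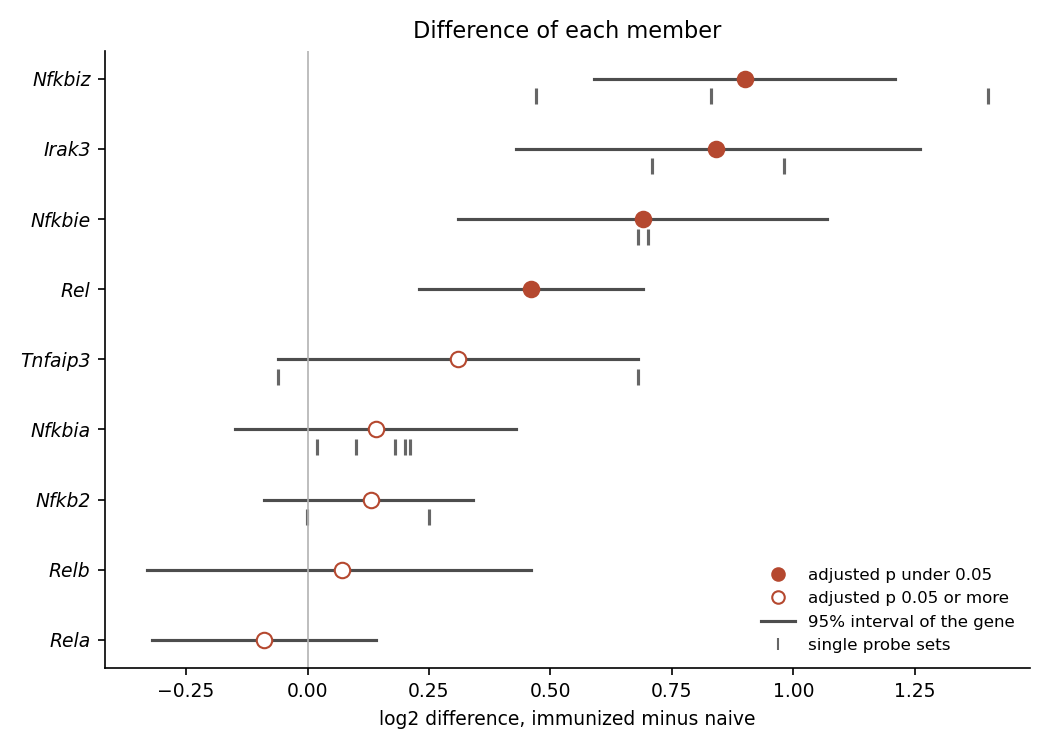
Difference between immunized and naive samples (log2) for each member, with its 95% interval; ticks under a gene are its single probe sets where it has more than 1. Filled points, with an adjusted p under 0.05, are Nfkbiz (0.90), Irak3 (0.84), Nfkbie (0.69) and Rel (0.46); the probe sets of Tnfaip3 (-0.06 and 0.68) and Nfkbiz (0.47 to 1.40) lie furthest apart.

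Taken as single probe sets, 5 of the 19 rose and 0 fell in limma, where 3.3% of all 45037 probe sets rose and 2.89% fell. Before adjustment 9 of the 19 had p under 0.05 in limma. The share of all probe sets that did so was not counted, and among all genes 12.9% were higher and 18.2% lower. In 8 of the 19 every immunized sample lay above every naive sample, against 9.01% of all probe sets. By the coarse level of their lowest array, 11 of the 19 lay at 8 or more (log2) and the other 8 between 4 and 8. Of all probe sets 31.7% and 57.4% lay at these levels.

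The calls depended on single samples. Nfkbiz was called with any sample left out except naive replicate 2 (adjusted p = 0.0656 in limma) or naive replicate 3 (0.0524). Irak3 did not pass without naive replicate 1, 2 or 3 (0.0736, 0.0803 and 0.0594) or immunized replicate 1 or 5 (0.0794 and 0.0633). Rel and Nfkbie passed only when immunized replicate 2 was the sample left out. Their adjusted p otherwise lay between 0.050 and 0.106 for Rel and between 0.0576 and 0.111 for Nfkbie. Without naive replicate 1 Rel differed by 0.50 (adjusted p = 0.0648 in limma) and Nfkbie by 0.82 (0.0596). The differences themselves stayed positive and ran from 0.81 to 0.95 for Nfkbiz, 0.64 to 0.96 for Irak3, 0.38 to 0.50 for Rel and 0.58 to 0.82 for Nfkbie. Without both samples that join 2 numbers, limma called 0 members and 0 of all genes, although 4 members kept p under 0.05 before adjustment. Leaving out naive replicate 1, 2 or 3 gave 1, 0 and 0 called members, and leaving out immunized replicates 1 to 5 in turn gave 1, 4, 2, 2 and 1. The calls over the whole array moved as well. From 812 higher genes in all samples, the count went to 254, 17 and 121 when naive replicates 1 to 3 were dropped in turn, and to 101, 1293, 414, 491 and 236 when immunized replicates 1 to 5 were.

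**Figure D3:**
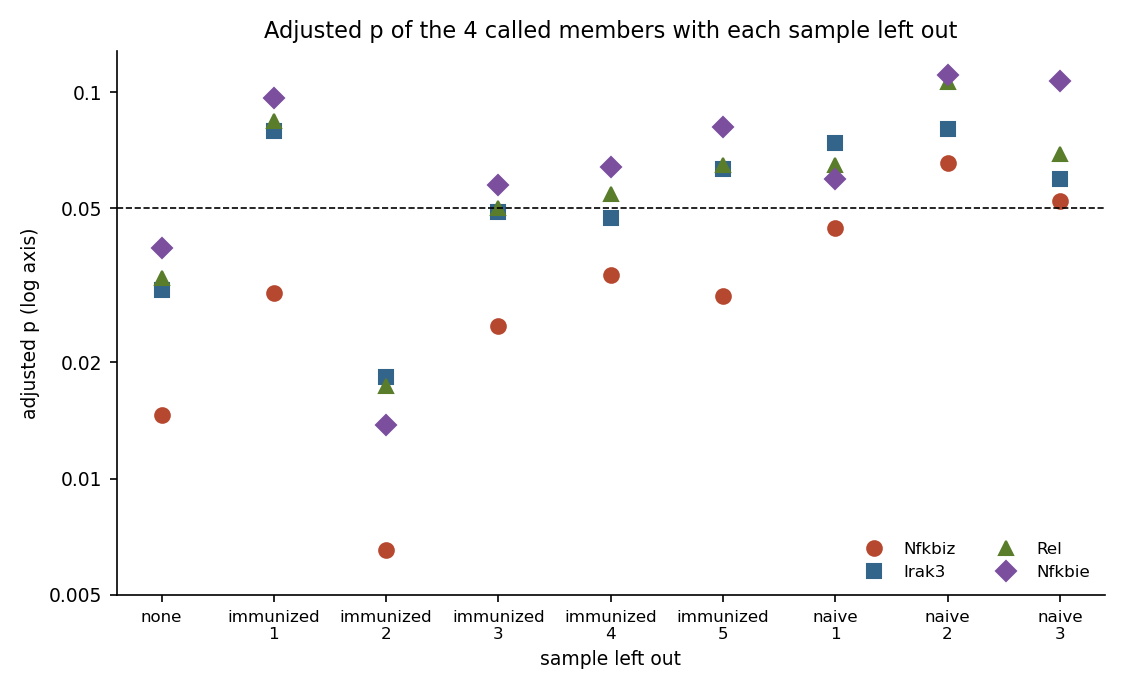
Adjusted p (log axis) of Nfkbiz, Irak3, Rel and Nfkbie with all samples ("none") and with each sample left out; the dashed line is 0.05. Without immunized replicate 2 all 4 genes passed, and without naive replicate 2 or 3 none of them did.

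The immunized samples did not share an order across the members. Nfkbiz and Tnfaip3 were highest in immunized replicate 1 followed by replicate 4, and Nfkbie in replicate 4 followed by replicate 1. Rel and Irak3 were highest in immunized replicate 3, where Nfkbia, Nfkb2 and Relb had their lowest immunized value. Nfkbiz (0.02) and Rela (-0.06) were also lowest there, but by little. Replicates 5 and 2 had 0.03 and 0.04 in Nfkbiz, and replicate 4 had -0.04 in Rela. In Nfkbiz probe sets 1417483_at and 1448728_a_at the lowest immunized value was that of replicate 5 (-0.02). Irak3 probe set 1435040_at was highest in immunized replicate 5 (0.64, against 0.51 in replicate 3). Marker genes of some other cells moved with the groups and with these samples. The mean of 8 macrophage markers was 0.72, -0.04, 0.23, 0.66 and 0.21 in immunized replicates 1 to 5, against -0.49, -0.90 and -0.95 in naive replicates 1 to 3, and 6 of the 8 rose in limma. The mean of 10 neutrophil markers was highest in immunized replicates 3 and 5 (0.59 and 0.58), with 3 of the 10 higher in limma. Its groups overlapped at immunized replicate 2 (-0.11) and naive replicate 1 (-0.10). The mean of 8 chondrocyte markers was lowest in immunized replicate 3 (-0.94), with naive samples at 0.28 to 0.66 and 2 of the 8 lower. Before adjustment 6 of the 8 macrophage and 10 of the 10 neutrophil markers were higher, and 7 of the 8 chondrocyte markers were lower. Over all genes the shares were 4.46% higher and 4.68% lower, or 12.9% and 18.2% before adjustment. The list means of plasma cells, dendritic cells, nucleus pulposus and osteoblasts did not overlap between the groups either, but few of their genes were called in limma. The plasma cell mean (-0.03 to 0.04 in immunized and -0.69 to -0.18 in naive samples) had 1 of 5 genes higher, Jchain at 2.99, while 3 of the 5 differences were negative and their median was -0.09. The dendritic cell mean (0.08 to 0.54 and -0.19 to -0.08) had 0 of 4 genes called, 2 higher before adjustment, and its greatest difference was in Itgax (1.29). The nucleus pulposus mean (-1.03 to 0.32 in immunized and 0.45 to 0.61 in naive samples) had 1 of 5 genes lower, Krt19, and 4 before adjustment. The osteoblast mean (-0.71 to 0.07 and 0.18 to 0.24) had 0 of 2 genes lower, and 1 before adjustment. By contrast, the list means of T cells, B cells, erythroid cells, annulus fibroblasts and endothelium overlapped between the groups. Of their genes only Cd3g, a T cell marker, was called in limma. The erythroid mean (-0.37 to 0.74 in immunized and -0.40 to 0.47 in naive samples) was highest in immunized replicate 3, as was the T cell mean (0.37). Among naive samples the erythroid and B cell means were highest in naive replicate 1 (0.47 and 0.43). The part of these cell types in the differences of Rel, Nfkbiz, Nfkbie and Irak3 was not tested.

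**Figure D4:**
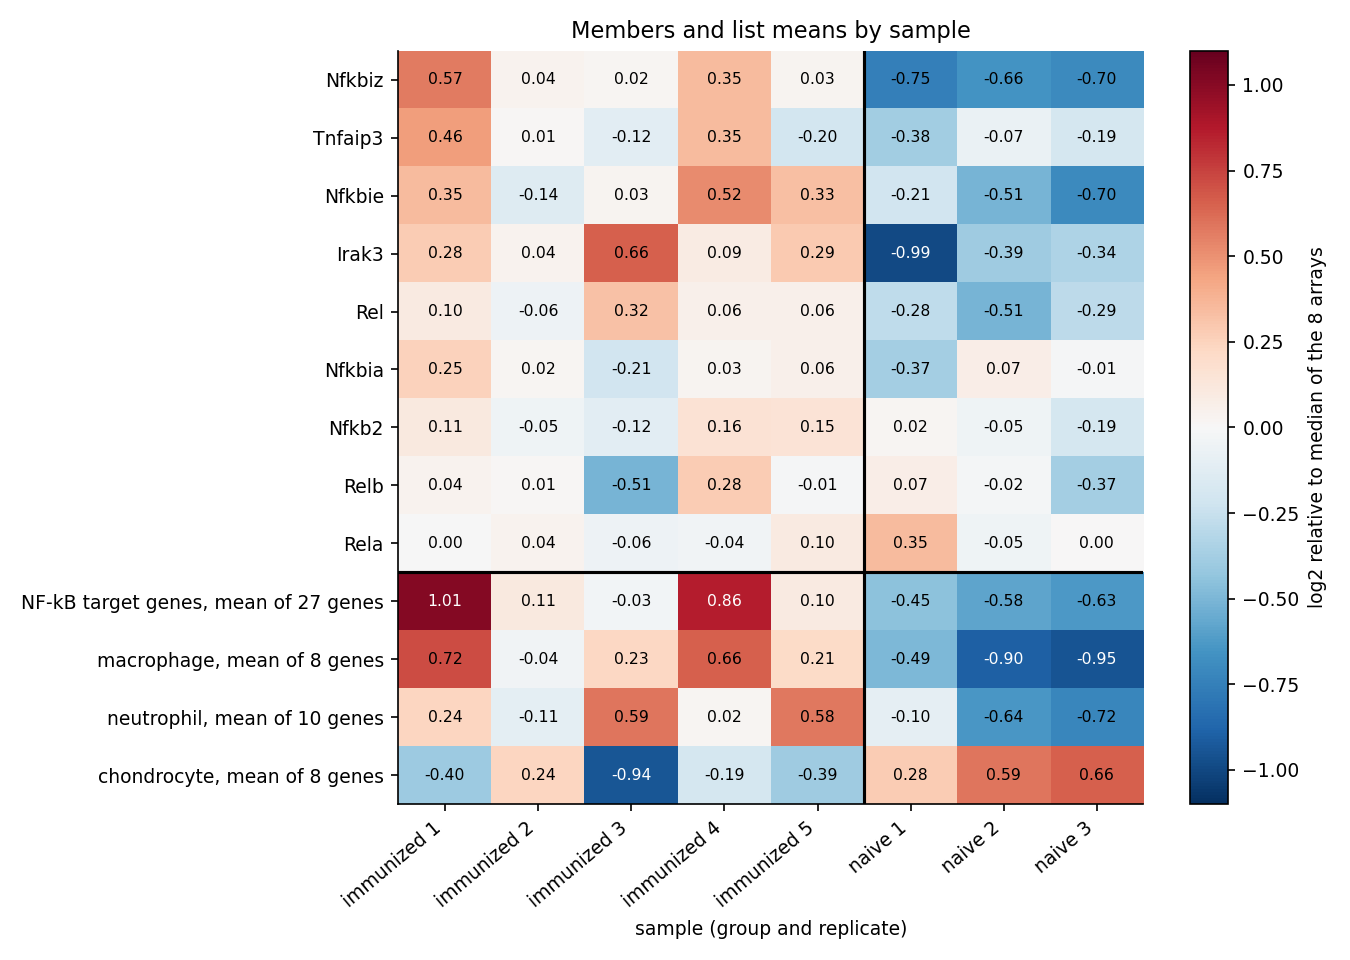
Values of the 9 members and the means of 4 gene lists in each sample (centred log2 scale; red higher, blue lower). Immunized replicates 1 and 4 are highest in Nfkbiz, Tnfaip3 and Nfkbie and in the means of NF-kB target genes (1.01 and 0.86) and macrophage markers (0.72 and 0.66), while Rel and Irak3 are highest in immunized replicate 3 (0.32 and 0.66).

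Promoters of the members are shown because NF-kB binds its own regulators' genes and because both called and uncalled members carry its motif. The RefSeq table (GRCm38.p6; 250 bases before to 50 after each annotated start) held promoters of 7 members, and the NF-kB motif was searched on both strands. Capitals mark the matches; overlapping matches run together. Irak3, which was called, had no match in either of its annotated windows, and its outer window is shown.

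Rel, chr11:23770920-23771219, minus strand: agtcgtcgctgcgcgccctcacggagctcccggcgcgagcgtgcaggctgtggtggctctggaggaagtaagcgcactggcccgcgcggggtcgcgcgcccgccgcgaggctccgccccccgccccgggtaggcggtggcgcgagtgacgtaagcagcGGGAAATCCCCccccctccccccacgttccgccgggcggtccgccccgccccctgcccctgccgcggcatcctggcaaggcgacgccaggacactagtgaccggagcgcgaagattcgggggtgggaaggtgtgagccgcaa
Nfkbie, chr17:45555450-45555749, plus strand: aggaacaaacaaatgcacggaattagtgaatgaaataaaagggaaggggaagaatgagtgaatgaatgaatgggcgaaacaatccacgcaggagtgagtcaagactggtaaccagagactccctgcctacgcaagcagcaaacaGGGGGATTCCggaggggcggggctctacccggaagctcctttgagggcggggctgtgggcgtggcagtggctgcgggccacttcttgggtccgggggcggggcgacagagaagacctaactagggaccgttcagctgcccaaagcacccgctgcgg
Irak3, chr10:120202081-120202380, minus strand: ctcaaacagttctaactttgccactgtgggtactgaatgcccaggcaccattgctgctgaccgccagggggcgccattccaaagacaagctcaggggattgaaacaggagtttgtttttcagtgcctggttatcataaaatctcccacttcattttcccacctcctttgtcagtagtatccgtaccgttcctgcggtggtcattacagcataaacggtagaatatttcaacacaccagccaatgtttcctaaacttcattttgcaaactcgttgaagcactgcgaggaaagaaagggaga
Nfkbia, chr12:55492598-55492897, minus strand: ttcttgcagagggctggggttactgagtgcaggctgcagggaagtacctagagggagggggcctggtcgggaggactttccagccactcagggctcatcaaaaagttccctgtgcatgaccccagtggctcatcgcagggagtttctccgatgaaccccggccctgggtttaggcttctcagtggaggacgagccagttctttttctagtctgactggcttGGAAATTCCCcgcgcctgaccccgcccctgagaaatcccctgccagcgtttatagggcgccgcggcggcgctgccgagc
Tnfaip3, chr10:19015361-19015660, minus strand: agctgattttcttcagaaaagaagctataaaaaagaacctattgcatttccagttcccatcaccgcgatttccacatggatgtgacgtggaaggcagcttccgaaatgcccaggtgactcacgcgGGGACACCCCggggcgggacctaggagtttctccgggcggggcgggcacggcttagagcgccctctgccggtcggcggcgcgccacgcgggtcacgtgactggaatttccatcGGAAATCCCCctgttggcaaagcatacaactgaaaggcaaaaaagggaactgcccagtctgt

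In Rel the match GGGAAATCCC began 92 bases before the start and read as the motif on both strands, and another match on the opposite strand began 91 bases before the start, overlapping it. In Nfkbie the match GGGGGATTCC lay 106 bases before the start. Nfkbia held the letters GGAAATTCCC, a match on the opposite strand, 29 bases before its start. Tnfaip3 had GGGACACCCC at 125 bases and GGAAATCCCC, on the opposite strand, at 12 bases before the start in the window shown. Its other annotated window had 0 matches. The motif was found for 5 of the 7 members (Rel, Nfkb2, Nfkbie, Nfkbia and Tnfaip3) and not for Rela or Irak3, against 7.81% of the 27025 genes in the table. Of these 5 genes Rel and Nfkbie were called, and Nfkb2, Nfkbia and Tnfaip3 were not. A match describes letters only and is not evidence of binding in these samples.

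Upstream of the members, 1 gene was called in each of the lists of kinases and adaptors that carry the signal, where 4.46% of all genes rose (12.9% before adjustment). Of 10 measured genes of the IkB kinase complex and its activating kinases, limma called 1 higher and 0 lower (4 and 1 before adjustment), with a median difference of 0.16. The gene that rose was Map3k8, a kinase that links NF-kB signalling to the ERK pathway, which measured 0.23, 0.49, 0.0049, 0.08 and -0.0049 in immunized replicates 1 to 5 and -1.30, -0.58 and -0.33 in naive replicates 1 to 3. Its groups did not overlap, and the difference was 0.90 ± 0.21 (SE, adjusted p = 0.0368). Of 11 receptor adaptors, 1 rose and 0 fell in limma (4 and 1 before adjustment), with a median of 0.04. That gene was Tirap, the adaptor that brings Myd88 to toll-like receptors at the membrane, with 0.07, -0.07, 0.25, 0.16 and 0.51 in immunized samples and -0.42, -0.39 and -0.48 in naive samples. Tirap differed by 0.62 ± 0.12 (SE, adjusted p = 0.027), and Myd88 itself by 0.49 ± 0.16 without passing (adjusted p = 0.0823).

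Among 16 other inhibitors and modifiers of the pathway 3 rose and 0 fell in limma (7 and 0 before adjustment), with a median difference of 0.19. Bcl3, a nuclear IkB relative that binds p50 and p52 dimers, measured 0.51, -0.04, 0.04, 0.81 and 0.72 in immunized replicates 1 to 5 and -0.39, -0.57 and -1.29 in naive replicates 1 to 3. Bcl3 was higher by 1.16 ± 0.26 (SE, adjusted p = 0.0331), with immunized replicates 2 and 3 well below the other 3. Tank, a binding partner of TRAF proteins, differed by 0.99 ± 0.14 (adjusted p = 0.0135) with immunized values of -0.01 to 0.52 and naive values of -0.91 to -0.52. Birc3, a ubiquitin ligase of TNF receptor complexes, rose by 0.40 ± 0.10 (adjusted p = 0.0492). Nfkbib, the third classical inhibitor beside Nfkbia and Nfkbie, had a difference of -0.05 ± 0.08 (SE, adjusted p = 0.728).

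Downstream, 6 of 27 NF-kB target genes rose and 0 fell in limma (12 and 0 before adjustment), with a median difference of 0.61. They were Saa3 (serum amyloid A), Cxcl2 (a neutrophil chemokine), Il1rn and Il1b (the interleukin 1 receptor antagonist and interleukin 1 beta), and Sele and Vcam1 (endothelial adhesion molecules). Il1b, which also signals into the pathway, measured 1.98, -0.03, 0.03, 1.61 and 0.42 in immunized replicates 1 to 5 and -0.81, -1.18 and -1.30 in naive replicates 1 to 3. As in Nfkbiz and Tnfaip3, immunized replicates 1 and 4 were highest in Il1b, and also in Saa3, Cxcl2, Il1rn and Sele, but not in Vcam1, which was highest in immunized replicate 3 (0.68). Tnf, another upstream signal, measured -0.02, 0.02, 0.14, 0.16 and -0.03 in immunized samples and 0.10, -0.10 and -0.38 in naive samples, and its difference of 0.18 ± 0.11 (SE) did not pass (adjusted p = 0.303). Over the 4 lists 11 of 64 genes rose and 0 fell in limma (27 and 2 before adjustment), against 4.46% of all genes that rose. With naive replicate 1, 2 or 3 left out 2, 0 and 2 of them rose, and with immunized replicates 1 to 5 left out in turn 4, 16, 8, 6 and 5.

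**Figure D5:**
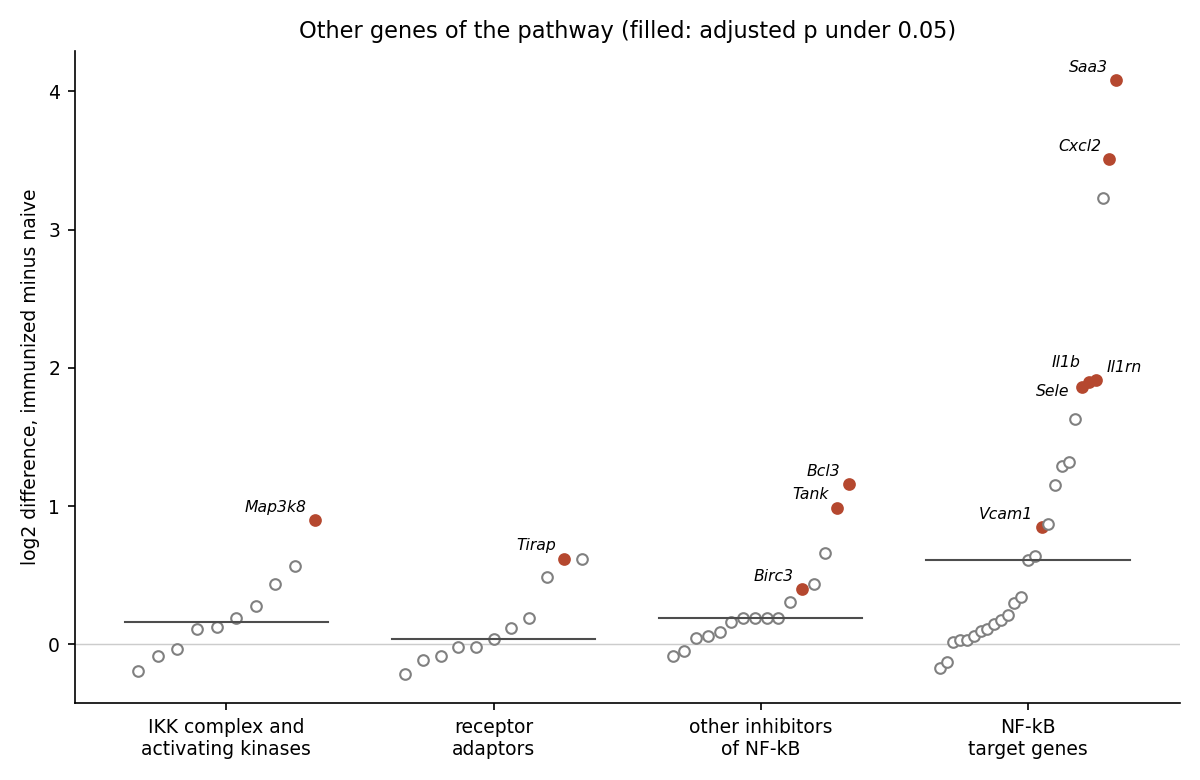
Difference between immunized and naive samples (log2) for each measured gene of 4 pathway lists; each point is a gene, filled and named where the adjusted p was under 0.05, and lines are list medians (0.16, 0.04, 0.19 and 0.61). Called genes are 1, 1, 3 and 6 of 10, 11, 16 and 27.

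Genes with the values most like those of the called members were found by the root mean square (RMS) difference over the 8 samples, a description with no test. Nearest to Nfkbiz was Tlr2, a toll-like receptor for bacterial lipoproteins, at an RMS difference of 0.0923 against a median of 0.534 over all genes. Tlr2 measured 0.44, -0.07, 0.07, 0.40 and 0.16 in immunized replicates 1 to 5 and -0.82, -0.68 and -0.80 in naive replicates 1 to 3. Immunized replicates 1 and 4 were highest, but Tlr2 was picked for its likeness to Nfkbiz over these same samples. The next were Man2a1, a Golgi mannosidase (0.146), and Mrc1, the mannose receptor of macrophages (0.155). Nearest to Rel were Jak1, a kinase of cytokine receptors (0.0694), the receptor phosphatase gene Ptprj (0.0819) and Nop56, a nucleolar protein of ribosome production (0.0821). Nfkbie was nearest to Gpr183, an oxysterol receptor of leukocytes (0.0948), Sting1, a sensor of cyclic dinucleotides (0.0997), and Efhd2, a calcium-binding protein (0.103). Irak3 lay nearest to Fbxo30, an F-box protein (0.0844), Azin1, an antizyme inhibitor of polyamine control (0.0847), and Hat1, a histone acetyltransferase (0.111). None of these 12 genes was shared between called members.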

How the data were processed

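The authors deposited a value, taken here as log2, for each of 45101 probe sets on 8 Affymetrix arrays, which the submitters' processing notes credit to RMA (robust multi-array averaging); its version and the log base are not given in the sources used here. Every fold change therefore assumes the log2 scale that RMA usually reports. In the deposited table each probe set has a median of 0 across the 8 arrays (within 5e-07), so values are differences from that median and absolute levels are lost. The number of arrays limits the precision. Cell lists, members and pathway lists were chosen with earlier results of these data known.

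Symbols came from the platform annotation, looked up in a RefSeq table (GRCm38.p6). The 64 control probe sets were left out, and 932 naming several genes or 9211 naming none did not enter the gene values. A gene was the mean of all probe sets naming it alone (18193 genes). Immunized and naive samples were compared by a two-sided test without covariates (lmFit and eBayes of limma 3.58.1, R 4.3.3), and p-values were adjusted by Benjamini-Hochberg over all genes or, for single probe sets, over all 45037; the threshold was 0.05. Errors are limma's SE. The procedure was tested on simulated data with independent genes and planted differences larger than those of the members. That test therefore does not speak for the calls made here. Named genes were all members, list genes past the threshold (at most 6 a list), Tnf and Il1b, and the 3 genes nearest each called member; Myd88, Map3k14, Nfkbib and the markers were added after their values were seen. A coarse level was read from the number spacing. Protein sequences were not used here. Replicate numbers were not used to pair samples in the main test.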

Additional observations from a re-analysis of the deposited data

Results flagged for a closer look

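Among 74 values screened for a sample far from the other immunized samples (members, their probe sets, the other genes described and the list means), 2 stood out, both in immunized replicate 3. The mean of the 2 osteoblast markers was -0.71 there, against -0.14 in the nearest immunized sample. Fbxo30, the gene nearest to Irak3, was at 0.66, against 0.19 in the nearest immunized sample. Chance alone picks out about 1 in 20 such groups. No member gene and no member probe set stood out.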

How the results depend on the processing

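Quantile normalization left 2 members (Nfkbiz and Irak3) and 2 member probe sets higher, with 521 genes higher and 377 lower. It called 1422 of all 45037 probe sets in either direction. Array weights gave 2495 higher and 3405 lower genes, 31 higher and 1 lower pathway genes and 9 member probe sets. With these weights 10150 of all 45037 probe sets were called in either direction. A threshold of 0.10 gave 1631 higher and 2152 lower genes, 18 pathway genes and 9 member probe sets, where 6991 of all probe sets passed in either direction. Without both samples with joined numbers 0 genes, members, pathway genes and member probe sets passed in limma (before adjustment, 1621 higher and 2173 lower genes, 4 members, 13 higher pathway genes and 8 member probe sets). The replicate number as a block left 6 higher and 1 lower gene and 0 members, pathway genes and member probe sets in limma. At an unadjusted p under 0.05 it gave 1845 higher and 2057 lower genes, 4 members, 21 higher pathway genes and 9 member probe sets. How many of all probe sets had such a p with the block or without the joined samples was not counted. Same-numbered samples correlated at -0.05, 0.24 and -0.10 in their deviations from the group means, and not every sample correlated best with its own number, so the block is not a stricter test. With each sample left out in turn the counts ranged from 17 to 1293 higher and 4 to 1710 lower genes, 0 to 4 members, 0 to 16 higher pathway genes and 0 to 8 member probe sets. Of all probe sets, 123 (without naive replicate 2) to 5299 (without immunized replicate 2) were called in either direction. No member fell with any sample left out. The trended and robust model ended the call of Rel (adjusted p = 0.0561). Rel, Nfkbie, Nfkbiz and Irak3 stayed positive in all 17 settings. Among these, the threshold of 0.10 and the trended and robust model leave the difference unchanged and could not turn a sign. Signs turned only in members that were not called: Nfkb2 (-0.00041 in probe set 1425902_a_at alone and without the _x_at and _s_at probe sets), Rela (0.01 with array weights, and -0.17 to 0.03 with a sample left out, positive without naive replicate 1), Relb (-0.05 with the block, -0.08 without joined samples, and -0.06 to 0.19 with a sample left out, negative without naive replicate 3 or immunized replicate 4) and Tnfaip3 (-0.06 in 1450829_at alone). The cause of these changes was not tested.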

Other observations

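Every immunized sample lay above every naive sample in 10 of the 27 NF-kB target genes, and in 9.39% of all genes. Of these 10, 4 did not pass: Il6, Cxcl1, Cxcl10 and Ccl2, chosen here after their values were seen. Il6, an inflammatory cytokine, measured 3.97, 0.54, -0.11, 4.01 and 0.11 in immunized replicates 1 to 5, against -1.48, -1.45 and -1.66 in naive replicates 1 to 3. Its immunized values fell far apart, with replicates 1 and 4 high as in Nfkbiz and Tnfaip3, and its difference of 3.23 ± 1.03 (SE) did not pass in limma (adjusted p = 0.0763). The chemokine genes Ccl2 (1.63 ± 0.65), Cxcl10 (1.32 ± 0.40) and Cxcl1 (1.29 ± 0.55) did not pass either, with an adjusted p of 0.127, 0.0701 and 0.147.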
